A study of Homo sapiens with 9 samples.

Results

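The adhesion G protein-coupled receptors of the AML cell line HNT34 were described with and without knockdown of EVI1, the transcription factor encoded by MECOM. Members were chosen by symbol, as every gene of the deposited count table named ADGR with a subfamily letter and a number and nothing after it, whatever its level. The table held 13 of the 28 protein-coding ADGR genes that RefSeq lists, among 16612 genes in all. Described here are 11 of them, ADGRA2, ADGRA3, ADGRB1, ADGRB2, ADGRB3, ADGRE1, ADGRE2, ADGRE5, ADGRG1, ADGRG3 and ADGRL1, and counts of members below refer to these 11. A filter on low counts kept all 11 and 16312 genes in all for testing. The family was selected because ADGRB2 had already been seen among the highest increases after knockdown, so its values against the control are given as a description with no p-value.

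HNT34 is a human AML line with the rearrangement t(3;3)(q21.3;q26.2), which places MECOM under a foreign enhancer and keeps EVI1 expression high. Cells received a lentiviral vector that carried either a control shRNA without a target (NT) or an shRNA against EVI1, sh#16 or sh#87, and all groups were selected in puromycin and collected 3 days after selection. RNA selected for polyA was sequenced from 3 libraries per group. All groups thus shared the vector, the selection and 1 parental line, and the sources used here do not say that libraries of a group came from separate transductions, so p-values measure the spread between these libraries, which may be technical.

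Adhesion G protein-coupled receptors join a long extracellular region, built for contact with other cells or the matrix, to a membrane domain that signals through G proteins. Most of them cut themselves at a proteolysis site in the GAIN domain, next to the membrane, and the 2 fragments stay attached. A short stretch behind the cut, the tethered agonist, can activate the receptor once the outer fragment is pulled away. In blood cells the family is known for ADGRG1 (GPR56), found on haematopoietic and leukaemic stem cells and linked to EVI1, and for the ADGRE receptors of leukocytes. ADGRB and ADGRL members are studied mostly at synapses.

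MECOM, the targeted gene, was lower in every knockdown library. It had 571, 504 and 440 CPM (the count scaled to a common library size) in NT, 145, 143 and 145 CPM with sh#16 and 109, 107 and 106 CPM with sh#87. The log2 fold change with both shRNAs against NT was -2.004 ± 0.14 (SE, adjusted p = 9.18e-07), and sh#87 was lower than sh#16 by a log2 difference of -0.43 ± 0.09 (SE, adjusted p = 0.00661), a difference that passed the test in 8 of 18 alternative settings (adjusted p up to 0.0299). Libraries held from 17096170 to 43502389 counts. Mitochondrially encoded genes accounted for 15.9%, 11.5% and 4.69% of the counts of NT replicates 1, 2 and 3, against 2.69% to 2.88% with sh#16 and 4.62% to 5.97% with sh#87. NT libraries also differed more from each other, with a median ratio of highest to lowest CPM of 1.39 over all tested genes, against 1.10 with sh#16 and 1.14 with sh#87. The label of a myeloid leukaemia cell was checked on 7 markers present in the table, all of them above 1 CPM in every group. Their summed level was 2074 to 2164 CPM in NT, 624 to 630 CPM with sh#16 and 387 to 388 CPM with sh#87. MPO, the defining enzyme of granulocyte precursors, was on the marker list but not among those found in the table, so it was not analysed here. Markers of other cells were also looked at. T and NK cell markers (CD3E, NKG7 and PRF1, 3 of 8, in the table) summed to 12.9 to 14.3 CPM in NT, 14.9 to 16.9 CPM with sh#16 and 7.83 to 8.82 CPM with sh#87, and endothelial markers (5 of 8) to 277 to 445, 75.9 to 81.3 and 49.6 to 52.6 CPM. With both shRNAs CD3E was lower (log2 fold change -1.20) and PRF1 higher (1.58), while NKG7 did not pass, and of the myeloid markers 5 were lower and CD33 and RUNX1 did not pass. All 5 endothelial markers were lower too, where 29.7% of all tested genes passed lower. Of the neural list MBP alone was in the table, at 332 to 349 CPM in NT, 147 to 150 CPM with sh#16 and 89.6 to 90.3 CPM with sh#87. These markers of other cells also had means of at least 1 CPM over all libraries, so that level does not set the myeloid label apart. The part of these markers in the results below was not tested. With the mitochondrially encoded genes removed before the fit, no member moved by more than 0.0012 on the log2 scale with both shRNAs. The scaling of libraries rests on most tested genes, so removing 15 genes could hardly move a member. It is no test of the differing mitochondrial share.

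With both shRNAs against NT, the family moved in both directions. ADGRG3, ADGRB1, ADGRE2, ADGRG1 and ADGRE5 were lower, ADGRE1, ADGRL1 and ADGRB2 were higher, and ADGRA2, ADGRA3 and ADGRB3 did not pass the test. A gene passed the test at an adjusted p of at most 0.01 (edgeR's quasi-likelihood test, Benjamini-Hochberg over all tested genes). Higher were 3 members, where 30.1% of all tested genes were called higher, and lower were 5, where 29.7% were called lower. The threshold for a differentially expressed gene further required a log2 fold change of 2 or more in size. It took in ADGRB2 among the higher genes, where 9.74% of all genes were called, and ADGRB1 and ADGRG3 among the lower genes, where 5.66% were called. In the same 8 members the 6 knockdown libraries and the 3 NT libraries did not overlap, 3 of them higher (33.9% of all genes) and 5 of them lower (32.1%). The median log2 fold change was -0.22 over the 11 members and 0.05 over all tested genes. The choice of the family used this comparison through ADGRB2, and nothing is read from the counts of members against those shares.

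**Figure D1:**
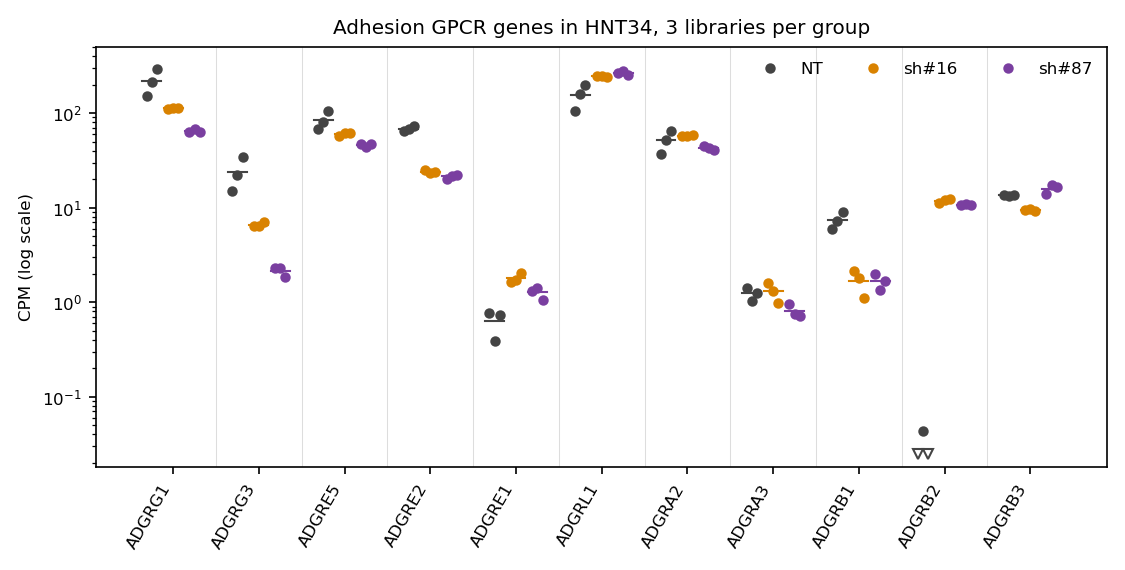
CPM (vertical, log scale) of the 11 members (horizontal, by subfamily), 1 point per library (NT grey, sh#16 orange, sh#87 purple), with a line at the mean of each group that has no library at 0. Open triangles at the bottom are the 2 NT libraries with 0 counts of ADGRB2, which stands near 11 CPM in all 6 knockdown libraries.

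The starts of ADGRB2 and ADGRG1 are shown because ADGRB2 went from at most 1 count to over 200 in each library and ADGRG1 is the member linked to EVI1 in AML. Each sequence holds the 250 bases before the annotated start (RefSeq, GRCh38.p14), written 5′ to 3′ on the strand of the gene, with every CpG in capitals. ADGRB2 lies on the minus strand of chromosome 1, and its window is chr1:31764341-31764590. ADGRG1 lies on the plus strand of chromosome 16, and the window before its outermost start is chr16:57619488-57619737.
ADGRB2: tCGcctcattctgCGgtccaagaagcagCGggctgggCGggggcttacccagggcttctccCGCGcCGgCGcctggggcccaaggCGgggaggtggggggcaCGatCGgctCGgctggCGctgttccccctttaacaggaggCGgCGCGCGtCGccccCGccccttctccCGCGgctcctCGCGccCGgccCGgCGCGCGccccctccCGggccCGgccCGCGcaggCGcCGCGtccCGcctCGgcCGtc
ADGRG1: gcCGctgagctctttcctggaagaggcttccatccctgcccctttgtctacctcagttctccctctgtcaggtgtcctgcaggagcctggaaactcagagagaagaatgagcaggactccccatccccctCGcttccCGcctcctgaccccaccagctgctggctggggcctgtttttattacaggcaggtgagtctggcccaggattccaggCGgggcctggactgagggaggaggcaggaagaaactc
The ADGRB2 window held 38 CpG and 79.6% G or C, and 96.7% of the 35116 RefSeq promoters held fewer CpG. The ADGRG1 window held 4 CpG and 60.4% G or C, with 29.3% of promoters below it, and the median promoter held 11 CpG and 58.0% G or C. RefSeq windows were used for 5 members, ADGRA3, ADGRB2, ADGRB3, ADGRE1 and ADGRG1. ADGRB3 held 46 CpG and ADGRE1 held 3, the ends of the range in these members. The 5 were searched on both strands, over all annotated starts and including the first bases of the transcript, for GACAAGATA and GAAGATGAG, the cores of the motifs bound by the zinc finger domains of EVI1. The E-box CACGTG was searched as well. So was AGATAAG, which GATA factors bind. None of the 5 members held any of these letters, which stood in 0.0968%, 0.347%, 7.26% and 2.68% of all promoter windows, in that order. This says only that these letters are not in these windows.

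ADGRG1 (57619738 to 57665567) and ADGRG3 (57665629 to 57689378) lie side by side on chromosome 16 (GRCh38.p14), with 61 bases between them. Both were lower with each shRNA, and in neither did an NT library overlap a knockdown library. DRC7, a protein of motile cilia whose gene is the next one of the table beyond ADGRG3, at 5.4 kb, rose by a log2 fold change of 1.26 ± 0.15 (SE, adjusted p = 3.25e-05). It was chosen by its position, after values had been seen.

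ADGRG1 binds collagen III and transglutaminase 2 and signals through the G12 and G13 proteins. NT libraries had 151, 214 and 293 CPM, sh#16 libraries 109, 114 and 114 CPM, and sh#87 libraries 62.7, 67.2 and 63.4 CPM. NT was highest throughout and sh#87 lowest, with no overlap between any groups. Its log2 fold change was -1.31 ± 0.26 (SE, adjusted p = 0.00103) with both shRNAs, -0.97 with sh#16 and -1.77 with sh#87, so ADGRG1 passed the test and stayed under the fold threshold.

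ADGRG3 (GPR97) is a receptor of neutrophils and other leukocytes. It had 14.8, 22.0 and 34.2 CPM in NT, 6.42, 6.42 and 7.01 CPM with sh#16 and 2.33, 2.32 and 1.83 CPM with sh#87. The groups were again separate, and here the shRNAs stood further apart than in ADGRG1. With both shRNAs the log2 fold change was -2.42 ± 0.44 (SE, adjusted p = 5.67e-04), against -1.85 with sh#16 and -3.45 with sh#87.

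The spread of the NT libraries was wide in these receptors. NT replicate 1, with 15.9% mitochondrial counts, had the lowest and NT replicate 3, with 4.69%, the highest CPM of ADGRG1, ADGRG3, ADGRE2, ADGRE5, ADGRL1, ADGRA2 and ADGRB1, an arrangement found in 34.4% of all tested genes with replicate 2 between them. Replicates of a group have no order, and the part of the mitochondrial share in this spread between NT libraries was not tested. Without any 1 NT or knockdown library the log2 fold change with both shRNAs stayed between -1.53 and -1.07 for ADGRG1 and between -2.68 and -2.08 for ADGRG3.

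The ADGRE receptors carry EGF-like domains and are mainly expressed by myeloid and other immune cells. ADGRE2 and ADGRE5 were lower after knockdown and ADGRE1 was higher.

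ADGRE2 (EMR2) binds chondroitin sulphate on neighbouring cells and matrix. Its libraries stood close together within each group, at 64.7, 68.4 and 72.4 CPM in NT, 24.8, 23.3 and 23.8 CPM with sh#16 and 20.2, 21.6 and 22.3 CPM with sh#87. NT lay clear of the knockdown libraries by a wide gap. Its log2 fold change of -1.60 ± 0.09 (SE, adjusted p = 2.27e-07) had the lowest SE of the members, with -1.52 for sh#16 and -1.68 for sh#87.

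ADGRE5 (CD97) is a receptor of leukocytes whose best known ligand is the complement regulator CD55. It had 68.4, 79.9 and 106 CPM in NT, 57.4, 61.2 and 61.2 CPM with sh#16 and 47.2, 44.1 and 46.9 CPM with sh#87. The groups did not overlap, but the lowest NT library stood near the highest sh#16 libraries. The log2 fold change was -0.68 ± 0.15 (SE, adjusted p = 0.00262) with both shRNAs, and without NT replicate 3 it was -0.50 and did not pass the test (adjusted p = 0.0105). Of its canonical transcript, 8.28% of the 100-base stretches also occur in ADGRE2, so a part of the reads could be split between these genes by the authors' counting. They lie 315.4 kb apart on chromosome 19 and moved the same way.

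ADGRE1 (EMR1), the human counterpart of the mouse macrophage marker F4/80 and in human blood a marker of eosinophils, was near the detection limit. Between 9 and 22 counts were seen in NT libraries and between 21 and 80 in knockdown libraries. These were 0.774, 0.390 and 0.734 CPM in NT, 1.65, 1.73 and 2.03 CPM with sh#16 and 1.33, 1.43 and 1.07 CPM with sh#87. All knockdown libraries were above all NT libraries. The log2 fold change was 1.27 ± 0.29 (SE, adjusted p = 0.00279), and without NT replicate 2 it was 1.03 and did not pass (adjusted p = 0.0149).

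The ADGRB genes, first named as brain-specific angiogenesis inhibitors, behaved in 3 different ways. ADGRB2 rose, ADGRB1 fell, and ADGRB3 differed between the shRNAs.

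ADGRB2 (BAI2), a receptor of the brain, had 0, 1 and 0 counts in the NT libraries and between 211 and 555 counts in each knockdown library. The levels were 11.3, 12.0 and 12.3 CPM with sh#16 and 10.7, 11.0 and 10.7 CPM with sh#87. Against the detection limit of NT, set at 3 counts or at most 0.130 CPM in a library, ADGRB2 was at least 87.2-fold higher with both shRNAs, 91.4-fold with sh#16 and 83.1-fold with sh#87. The fitted log2 fold change of 9.30 depends on the constant added to counts of 0 and is no bound. These values led to the choice of the family. Between the shRNAs, which the choice did not use, the log2 difference was -0.14 with a 95% interval from -0.45 to 0.18 (adjusted p = 0.483). Detection limits and counting intervals cover counting error only.

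ADGRB1 (BAI1) recognises phosphatidylserine on dying cells and engages ELMO and DOCK proteins. It had 5.93, 7.24 and 9.07 CPM in NT, 2.13, 1.79 and 1.10 CPM with sh#16 and 1.996, 1.34 and 1.68 CPM with sh#87. The shRNAs overlapped each other and both stood below NT. ADGRB1 had a log2 fold change of -2.14 ± 0.22 (SE, adjusted p = 1.27e-05), and without NT replicate 3 it was -1.99, just under the fold threshold. The difference between the shRNAs was -0.02 with a 95% interval from -0.65 to 0.60, and sh#16 libraries held as few as 20 counts.

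ADGRB3 (BAI3) is a receptor for C1q-like proteins. It had 13.5, 13.4 and 13.8 CPM in NT, 9.35, 9.73 and 9.15 CPM with sh#16 and 13.8, 17.2 and 16.4 CPM with sh#87. All sh#16 libraries were below NT and all sh#87 libraries above it, the lowest of them by a narrow margin. The fall with sh#16 passed the test (log2 fold change -0.53 ± 0.10, SE, adjusted p = 9.02e-04), while the value with sh#87 was 0.21 ± 0.09 (SE, adjusted p = 0.0628). With both shRNAs together the value was -0.11 ± 0.22 (SE, adjusted p = 0.664), an average of unlike levels.

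ADGRL1 (latrophilin 1), the receptor for the spider toxin alpha-latrotoxin with teneurins, FLRT proteins and neurexins as partners, was the only member other than ADGRB2 and ADGRE1 to rise. It had 104, 157 and 200 CPM in NT, 245, 249 and 244 CPM with sh#16 and 267, 279 and 253 CPM with sh#87. All knockdown libraries were above all NT libraries, and the knockdown libraries lay close together. ADGRL1 had a log2 fold change of 0.74 ± 0.17 (SE, adjusted p = 0.00261), and without NT replicate 2 it was 0.75 and did not pass (adjusted p = 0.0116). Its antisense gene ADGRL1-AS1 had means of 2.37 to 3.50 CPM and a log2 fold change of 0.35 ± 0.23 (SE, adjusted p = 0.188). The paper describes strand-specific libraries, but whether the counting used the strand is not given in the sources used here. ADGRL1 was far above ADGRL1-AS1. ADGRL1 lies 175.3 kb from ADGRE5, the nearest of the described members on chromosome 19, and they moved in opposite directions. Genes between them were not looked at.

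The ADGRA receptors did not pass the test with either shRNA or with both. ADGRA2 (GPR124), which with RECK makes cells respond to WNT7, ranged from 37.2 to 65.2 CPM in NT, from 56.6 to 58.8 CPM with sh#16 and from 40.4 to 45.0 CPM with sh#87. The knockdown levels lay within the NT range, and the log2 fold change with both shRNAs was -0.05, with a 95% interval from -0.45 to 0.36. Without NT replicate 1, the fold change of ADGRA2 with sh#87 was -0.47 and passed (adjusted p = 0.00136). ADGRA3 (GPR125), an orphan receptor, had 14 to 61 counts and 0.712 to 1.61 CPM in all 9 libraries. Its log2 fold change with both shRNAs was -0.22, with a 95% interval from -0.85 to 0.42. With sh#16 alone it was 0.08 and the libraries overlapped NT. With sh#87 it was -0.61 (adjusted p = 0.0434), and all sh#87 libraries were below NT.

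Levels of different members were compared per kilobase of the canonical transcript. In NT, ADGRG1 (51.6 ± 16.8 CPM per kb, SD, n = 3) was the highest of the 11 and stood apart from ADGRE5 (26.6 ± 5.99), which overlapped ADGRL1 (19.7 ± 6.11). ADGRE2, ADGRG3 and ADGRA2 followed at 10.1, 9.08 and 7.44 CPM per kb, with ADGRE2 apart from ADGRL1 and each of the other neighbours overlapping. ADGRB3 (2.23), ADGRB1 (1.23), ADGRA3 (0.271) and ADGRE1 (0.203) were lower, of which ADGRA3 and ADGRE1 overlapped each other, and ADGRB2 was last at 0.0025 CPM per kb.

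After knockdown the order began with ADGRL1, at 31.5 ± 0.37 CPM per kb (SD, n = 3) with sh#16 and 34.1 ± 1.69 with sh#87. ADGRG1 was next at 26.4 ± 0.62 and 15.1 ± 0.57 CPM per kb, then ADGRE5 at 18.8 ± 0.69 and 14.4 ± 0.54, which ADGRG1 overlapped with sh#87 and not with sh#16. ADGRA2 and then ADGRE2 followed with each shRNA. ADGRB2 was at rank 7 of the 11 members with each shRNA, at 2.08 ± 0.09 and 1.89 ± 0.03 CPM per kb, from last place in NT. Other neighbours in the order were separate, with the exception of ADGRA3 and ADGRB1 with sh#16.

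Summed over the 11 members, the length-scaled level was 94.5, 125 and 165 CPM per kb in NT, 94.0, 96.7 and 96.4 with sh#16 and 79.1, 81.2 and 77.1 with sh#87. Every sh#87 library was below every NT library, while the lowest NT library stood among the sh#16 libraries. For ADGRG1 and ADGRL1 the shares of this sum varied less between NT libraries than the levels did. ADGRG1 made up 39.8% ± 2.17 (SD, n = 3) of it in NT, 27.6% ± 0.24 with sh#16 and 19.1% ± 0.45 with sh#87. ADGRL1 went from 15.2% ± 1.01 to 32.9% ± 0.54 and 43.1% ± 1.04. The sum is carried by a few receptors and is no count of receptor protein. In RNA of whole cultures, fewer cells that express a receptor and less RNA per cell cannot be told apart.

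**Figure D2:**
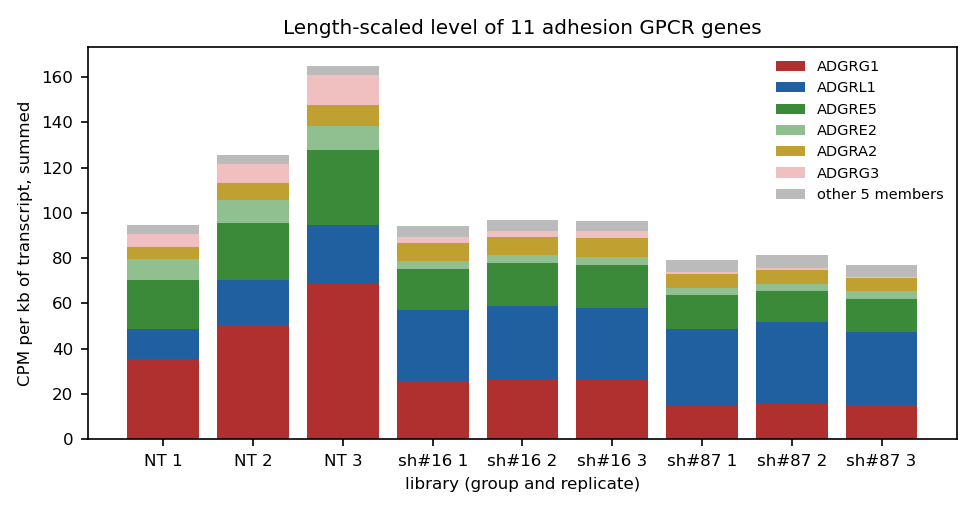
CPM per kilobase of canonical transcript (vertical), summed over the 11 members in each of the 9 libraries (horizontal), with 1 colour for each of 6 abundant members and grey for the other 5. NT bars reach 94.5 to 165 with ADGRG1 as the largest piece, while knockdown bars reach 77.1 to 96.7 with ADGRL1 as the largest piece.

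Each shRNA was also set against NT alone, and both of these comparisons use the same 3 NT libraries. ADGRB2 is counted among the higher members only as a description, since its rise over NT led to the choice of the family. With sh#16, 3 members passed higher (29.8% of all tested genes) and 6 lower (30.2%), the same 8 as above and ADGRB3. At the fold threshold ADGRB2 was called higher (7.95% of all genes) and ADGRB1 lower (4.84%), while ADGRG3 had a log2 fold change of -1.85. ADGRE5 (adjusted p = 0.00932) and ADGRL1 (adjusted p = 0.00979) were near the threshold with sh#16 and lost the call in 11 and 9 of 18 alternative settings. With sh#87, 3 members passed higher (34.3%) and 5 lower (33.6%), and at the fold threshold ADGRB2 was called higher (11.7%) and ADGRB1 and ADGRG3 lower (7.14%). With sh#87 the higher calls of ADGRE1 and ADGRL1 passed in 10 and 14 of 18 alternative settings (adjusted p up to 0.0267 and 0.0144). The median log2 fold change of the members was -0.50 with sh#16 and -0.61 with sh#87, against 0.04 over all tested genes in each.

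The shRNAs were then compared directly, a contrast that the choice of the family did not use. ADGRB3 was higher with sh#87 than with sh#16 by a log2 difference of 0.74 ± 0.10 (SE, adjusted p = 7.53e-04), with a 95% interval from 0.53 to 0.96. ADGRG3 was lower with sh#87 by -1.60 ± 0.30 (SE, adjusted p = 0.00400), with an interval from -2.28 to -0.93. These were 1 of the 11 members higher, where 8.29% of all tested genes passed higher, and 1 lower, where 9.42% passed lower. At the fold threshold 0 members were called in either direction (0.288% of all genes higher and 0.166% lower), 0 also by DESeq2 and by limma-voom. An unadjusted p under 0.05 in edgeR was seen for 6 members. The share of all tested genes under that unadjusted p was not computed, so nothing is read from this count.

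ADGRG1 (log2 difference -0.80, adjusted p = 0.0131) and ADGRA3 (-0.69, adjusted p = 0.0529) did not pass, though the sh#87 libraries were all below the sh#16 libraries. The fit shares 1 estimate of spread with the NT libraries, which varied most. In a fit of the 6 knockdown libraries alone, ADGRG1 (adjusted p = 4.89e-07) passed, as did ADGRA2 and ADGRE5. The share of all tested genes that passed in that fit was not computed, so these calls are not shown to be particular to the members. ADGRG1 also passed by DESeq2 and without NT replicate 1 or 3. The ADGRG3 difference did not pass by limma-voom (adjusted p = 0.0181) or without any 1 of the 6 knockdown libraries (adjusted p from 0.0140 to 0.0208). The libraries of the shRNAs did not overlap in 10 members, of which ADGRB3 and ADGRL1 were higher with sh#87 (31.1% of all genes) and 8 were lower (34.3%). The median log2 difference was -0.38 over the members and -0.02 over all tested genes. MECOM was also lower with sh#87, as given above, and its part in these differences was not tested.

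**Figure D3:**
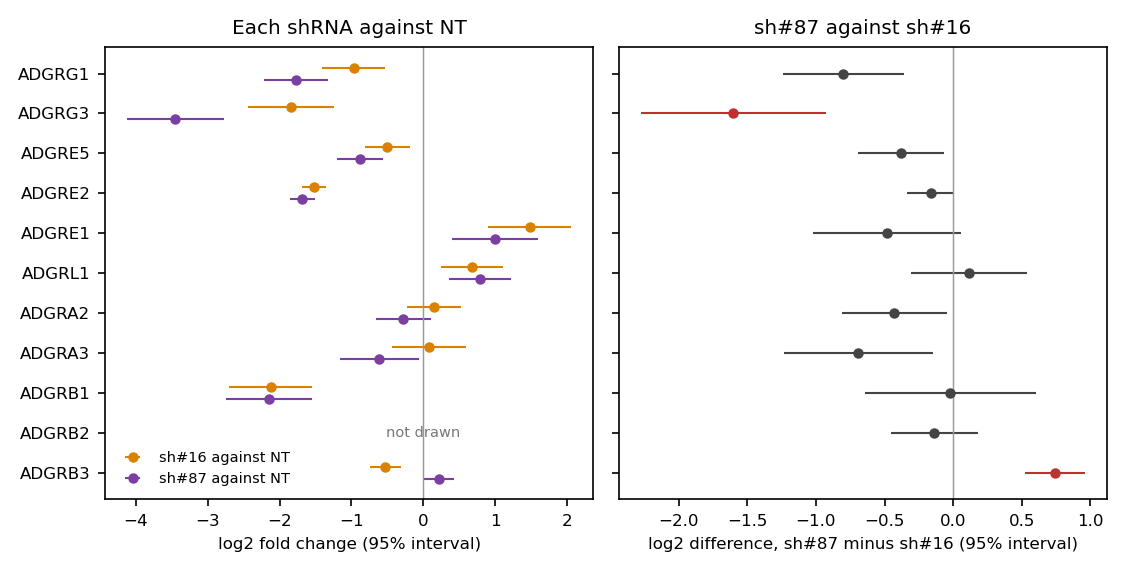
Left, log2 fold change against NT (horizontal) of the 11 members with sh#16 (orange) and sh#87 (purple), and right, log2 difference of sh#87 minus sh#16, with bars for 95% intervals and red for an adjusted p of at most 0.01. ADGRB2 against NT is not drawn because NT libraries had 0 or 1 counts, and on the right ADGRB3 lies above 0 and ADGRG3 below it.

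Other genes of adhesion receptor signalling were taken from 3 lists, chosen with earlier results of these data known. The C subfamily, whose genes keep the older name CELSR, encodes cadherins with a receptor domain that act in planar cell polarity. Of its 3 genes 2 were in the table, and both rose, where 30.1% of all tested genes passed higher. CELSR2 had 7.52 ± 3.51 CPM in NT (SD, n = 3), 34.0 ± 0.46 with sh#16 and 37.5 ± 2.75 with sh#87, a log2 fold change of 2.24 ± 0.25 (SE, adjusted p = 2.44e-05). CELSR3 had 6.23 ± 2.36, 20.8 ± 0.55 and 34.8 ± 0.89 CPM, a log2 fold change of 2.15 ± 0.31 (SE, adjusted p = 1.22e-04). For CELSR3 the log2 difference between the shRNAs was 0.74 (adjusted p = 0.0266), which did not pass.

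Of 29 ligands and membrane partners 10 were tested, of which 6 rose, 2 fell and 2 did not pass, where 30.1% of all tested genes passed higher and 29.7% lower. Their median log2 fold change was 1.27, against 0.05 over all tested genes. NRXN2, a neurexin and so of the protein family that binds ADGRL1, rose by 3.19 ± 0.17 (SE, log2), and RTN4RL2, a relative of the Nogo receptor that binds ADGRB1, by 3.07 ± 0.32. PTK7, a receptor-like protein of WNT signalling, rose by 1.60 ± 0.19. C1QL4, of the C1q-like family that binds ADGRB3, also passed higher but was too low to be named by the rule and was chosen after its values were seen, with 0 to 6 counts in NT libraries and 20 to 89 in knockdown libraries. CD55, the ligand of ADGRE5, was lower, with a log2 fold change of -1.50 ± 0.14 (SE, adjusted p = 7.97e-06), and RTN4RL1 was lower at -0.84 ± 0.15 (SE, adjusted p = 5.45e-04).

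Of 16 G protein alpha subunits 9 were tested, of which 3 rose, 4 fell and 2 did not pass, where 30.1% of all tested genes passed higher and 29.7% lower. Their median log2 fold change was 0.21, against 0.05 over all tested genes. With only 9 genes, nothing is read from these counts against those shares. GNA11, of the Gq class, rose by 2.59 ± 0.21 (SE, log2), whereas its close relatives GNAQ and GNA15 were lower at -1.50 ± 0.08 and -2.06 ± 0.09. The proteins through which ADGRG1 signals went apart, as GNA12 rose by 0.93 ± 0.11 and GNA13, which the rule did not name and which was chosen after its values were seen, was lower at -0.69 ± 0.07. GNAI2 rose by 0.44 ± 0.08. GNAS, the alpha subunit of Gs, was lower at -1.26 ± 0.11. All of these had adjusted p-values of at most 0.01 with each shRNA.

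Between the shRNAs 0 of the 2 CELSR genes passed, 1 of 10 ligands was lower and 1 of 9 alpha subunits was lower with sh#87, where 8.29% of all tested genes passed higher and 9.42% lower, so these counts stood near the background.

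**Figure D4:**
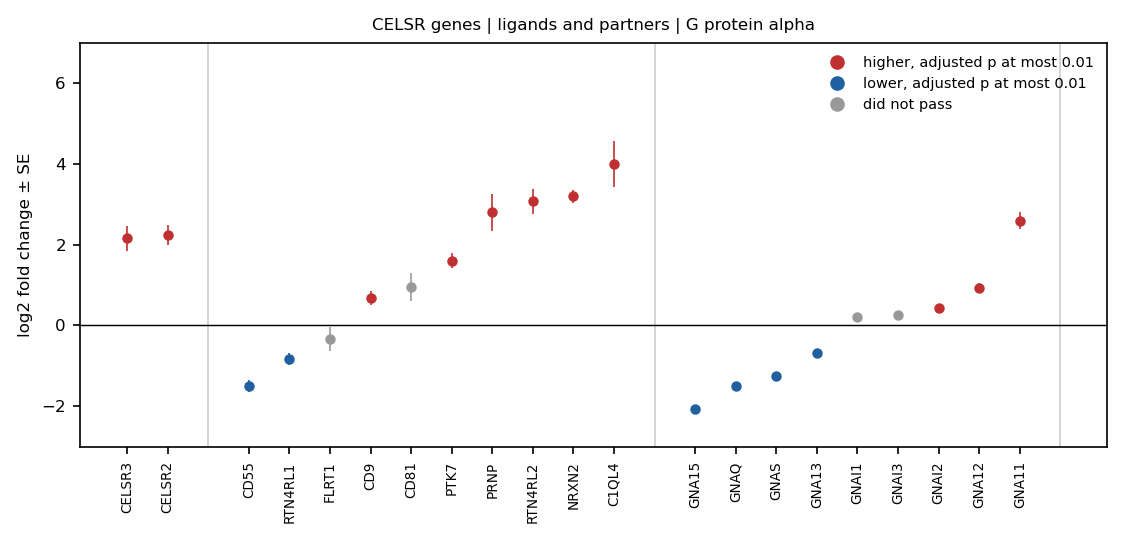
Log2 fold change with both shRNAs against NT (vertical, bars ± SE) of the tested genes of the 3 lists, ordered within each list by value, red and blue for genes that passed the test. Both CELSR genes are above 1, ligands reach from CD55 at -1.50 upward, and alpha subunits stand on both sides of 0.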

How the data were processed

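RNA of 9 HNT34 libraries, 3 each of NT, sh#16 and sh#87, was grouped by sample title. One field of the labels carries the number 18 for the sh#87 libraries, whose titles give 87. The values are estimated counts that the authors deposited unnormalized, whole in every cell, so that no rounding was needed. Salmon output is named in the header, whereas STAR, ENSEMBL and GRCh38 are named in the methods. Header names are shifted by 1 column, and each was assigned to the value column after it.

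Counts were tested in R 4.3.3 with edgeR 4.0.16 (TMM, filterByExpr, quasi-likelihood test, Benjamini-Hochberg over all tested genes), with a fit of 2 groups for both shRNAs against NT and a fit of 3 groups otherwise. CPM used library sizes scaled by TMM. Depth was 17096170 to 43502389 counts, and the detection limit was 3 counts per library. Intervals are at 95%. The model was tested before use on simulated data with the same spread for all genes and groups. The wider spread of the NT libraries was thus not covered. Alternatives included DESeq2 1.42.0 and limma-voom (limma 3.58.1). Figures and sequence searches used Python 3.11.15 and matplotlib 3.10.9.

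Of the genes the rule takes 2 are not reported here, nor are 1 list of genes and some neighbouring genes. Members and lists were chosen with earlier results of these data known. Full values are given for members with at least 1 CPM in a group that passed the test, and ranges for the others. From each list, up to 3 genes with the highest and 3 with the lowest log2 fold change were named, among genes that passed with each shRNA, did not overlap with NT and reached 5 CPM. Positions and promoters came from RefSeq (GRCh38.p14), and transcript lengths from the canonical GENCODE transcripts of a GRCh37 annotation, in which sequence shared within the family was counted in stretches of 100 bases.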

Additional observations from a re-analysis of the deposited data

Results flagged for a closer look

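In the 6 knockdown libraries, sh#16 replicate 2 stood apart in depth. The gap between its total and the next was 0.773 of the whole range of totals, above the limit of 0.625 for 6 samples. Of 13 measures compared in this way it was the only one past the limit. In samples of a single group, chance alone passes that limit for about 1 in 20. The 6 libraries hold both shRNAs, and where the shRNAs stand apart an outlying library is hard to flag. The other measures are thus not shown to be free of outliers.

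The effect differed between the shRNAs, by the test of the difference itself, for ADGRB3 (log2 difference of sh#87 minus sh#16 of 0.74), ADGRG3 (-1.60) and the targeted gene MECOM (-0.43). The ADGRB3 difference passed the test in all 18 alternatives, that of ADGRG3 in 11 and that of MECOM in 8.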

How the results depend on the processing

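At a log2 fold change of 2 the members called numbered 3 (both shRNAs), 2 (sh#16), 3 (sh#87) and 0 (sh#87 against sh#16). ADGRB2, whose rise over NT led to the choice of the family, is included in the counts against NT as a description only. With no fold threshold the counts became 8, 9, 8 and 2, and at a fold threshold of 1 on the log2 scale they became 6, 5, 6 and 1. ADGRE1 with sh#87 met that lower threshold only narrowly, at a log2 fold change of 1.0003. The shares of all tested genes at a threshold of 1 were not computed, so nothing is read from those counts. Leaving out each library in turn gave 2 to 3, 1 to 3, 2 to 3 and 0 members, and the sh#16 count was 1 without sh#16 replicate 3 or NT replicate 3, where ADGRB1 was lost. Directions that turned all belonged to values that did not pass, and their cause was not tested. With upper-quartile normalization ADGRA2 (both shRNAs) was 0.0677 and ADGRB3 (both shRNAs) 0.00136, while the median of all genes moved from 0.05 to 0.16. As single libraries were left out, ADGRA2 ran from -0.25 to 0.14 (both shRNAs) and from -0.0543 to 0.33 (sh#16), ADGRA3 from -0.0746 to 0.22 (sh#16), ADGRB1 from -0.22 to 0.16 (sh#87 against sh#16), and ADGRB2 from 8.72 to 11.2 (both shRNAs), the last because it rests on 1 NT count. The call of ADGRE1 with sh#87 was lost in 8 of 18 alternatives. In each pathway list the number of genes that passed with both shRNAs stayed within 1.5 times under every alternative run. Replicate numbers did not pair the libraries (correlations of deviations from -0.18 to 0.10 over 9 pairs), and with a replicate block 3, 2, 3 and 0 members were called. Libraries of a group differed by more than sampling noise. Low counts limit ADGRE1, ADGRA3 and ADGRB1.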
